A study of Homo sapiens with 35 samples.

Results

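The experiment described here is the response of control HCT116 cells to low oxygen. HCT116 is an established human colorectal carcinoma line, and the control cells carried a short hairpin RNA with no target (shControl). The hypoxia group was 2 arrays of shControl cells kept for 24 h at 1% oxygen, and the reference was 3 arrays of shControl cells labelled untreated, in normal growth; these 5 arrays were chosen by their titles from 35 in the series. All cells had been plated 24 h before treatment, in medium (McCoy's 5A) that held 10% fetal calf serum. Total RNA was hybridised to whole-transcript gene arrays, 1 sample per array. Further shControl groups were used as other references: 2 arrays after 12 h of DMSO and 3 arrays after 24 h in high glucose DMEM, beside 3 after 24 h in low glucose DMEM. Lines with a hairpin against the Mediator kinases CDK8 (shCDK8) or CDK19 (shCDK19), 1 line each, had 3 arrays in normal growth and 2 in hypoxia. The hypoxia arrays and the normal growth arrays come from different experiments, and the normoxic arrays of the hypoxia experiment were not analysed here. An effect of oxygen and a difference between the experiments cannot be told apart. The labels do not state whether replicates were separate cultures. The p-values therefore rest on the spread between arrays alone, and that spread may be technical.

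Cells sense oxygen through prolyl hydroxylases of the EGLN family, which mark the alpha subunits of the hypoxia-inducible factors (HIF) for recognition by the VHL ubiquitin ligase and destruction. When oxygen is short the alpha subunit persists, pairs with ARNT and binds DNA at the core letters RCGTG, where R is A or G. Its known targets raise glucose uptake and glycolysis, hold pyruvate back from the mitochondria, remove mitochondria, modify collagen and call for new vessels. Low oxygen also slows growth through brakes on DNA replication and on the making of ribosomes.

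Hypoxia replicate 1 stood apart from the other arrays. The replicates of the hypoxia group correlated with r = 0.976 across transcript clusters, where the normal growth arrays correlated with 0.998 and the lowest value within any other group was 0.987. Hypoxia replicate 2 correlated with the normal growth arrays at 0.988, and replicate 1 at 0.968 to 0.97. Replicate 1 had the narrowest interquartile range of the 35 arrays, 3.24 log2 units against 3.51 in replicate 2 and 3.66 to 3.69 in normal growth. The median standard deviation of a gene was 0.206 log2 units between the hypoxia replicates and 0.0551 between the normal growth arrays. The shape of its change also followed the level of a gene. Over 5 equal groups of genes ordered by mean level, from dim to bright, the median change on replicate 1 was 0.32, 0.45, 0.04, -0.32 and -0.25 log2 units. On replicate 2 it was 0.07, 0.05, -0.02, -0.11 and -0.11, so dim genes lay higher and bright genes lower on both arrays, more so on replicate 1. What part this shape has in the calls was not tested, and most counts against normal growth are also given without replicate 1.

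**Figure D1:**
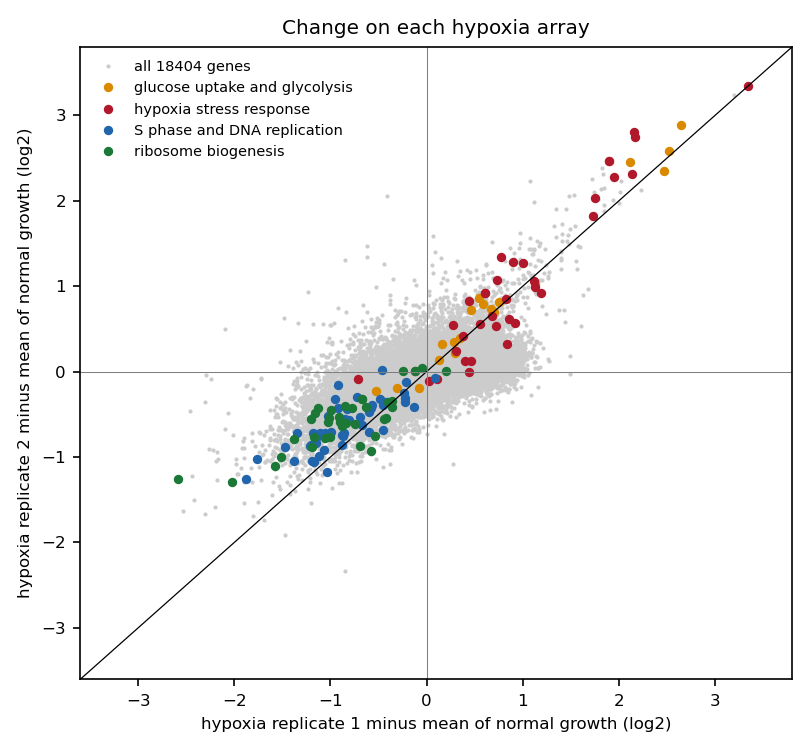
Change of every tested gene on hypoxia replicate 1 (horizontal) and hypoxia replicate 2 (vertical), each as log2 units from the mean of the 3 normal growth arrays. Grey points are all 18404 genes, coloured points are members of 4 gene lists, and the diagonal marks equal change; glycolysis and hypoxia stress genes lie high on both arrays, while lowered genes lie farther from 0 on replicate 1, where 900 genes were at least 2-fold lower against 139 on replicate 2.

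**Figure D2:**
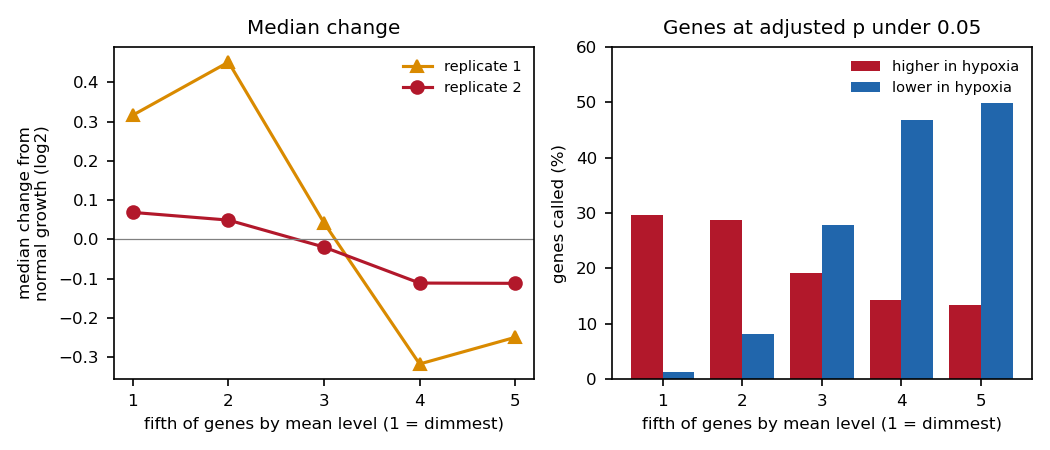
Left, median change in log2 units in 5 equal groups of genes by mean level, for each hypoxia replicate. Right, percent of the genes in each group called higher or lower in hypoxia; the share called lower climbed from 1.2% in the dimmest group to 49.8% in the brightest, and the share called higher went from 29.7% to 13.4%.

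Of 18404 genes tested, 3879 (21.1%) rose and 4922 (26.7%) fell in hypoxia against normal growth at an adjusted p under 0.05 (limma, Benjamini-Hochberg), 47.8% in all. Far fewer moved by a large factor: 110 genes (0.598%) rose and 316 (1.72%) fell by at least 2-fold. The balance of these large changes depended on the fit. With the interquartile range of each array as a covariate, 202 genes rose and 57 fell by at least 2-fold. On both hypoxia arrays separately, 84 genes were at least 2-fold above the normal growth mean and 109 at least 2-fold below it. Without replicate 2, 6419 genes rose. Without replicate 1, 1433 genes (7.79%) rose and 3116 (16.9%) fell, among them 1178 of the genes that had risen and 2952 of those that had fallen. At least 2-fold, 144 then rose and 137 fell. Subtracting each array's median turned the count to 2332 higher and 5349 lower, so that the share of lower genes among those called went from 55.9% to 69.6%. Scaling moved the median gene from 0.056 to -0.026. Every list below is to be read against these shares, against the median change of 0.056 over all genes and against the level of its genes. In the brightest of the 5 groups of genes by mean level, 49.8% fell and 13.4% rose, with a median change of -0.19. In the dimmest group 1.2% fell and 29.7% rose, with a median change of 0.20. For a list of bright genes the brightest group is the closer background. The values of the hypoxia and normal growth arrays did not overlap for 11150 of all genes (60.6%). A lack of overlap alone therefore says little about a gene. Changes are differences in log2 units, hypoxia minus normal growth, ± SE of the fit.

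The genes that rose most included ANKRD37, ANGPTL4 and the glucose genes SLC2A3 and HK2. ANKRD37, which encodes a small ankyrin-repeat protein, lay at 7.84, 7.51 and 7.72 log2 units in normal growth and at 11.03 and 11.04 in hypoxia. It rose 10.2-fold, the most of any gene (3.35 ± 0.116, adjusted p = 4.89e-16), and both hypoxia arrays lay far above all 3 normal growth arrays. ANGPTL4, a secreted inhibitor of lipoprotein lipase, lay at 9.0, 8.55 and 8.71 in normal growth and at 11.95 and 11.99 in hypoxia. It rose 9.32-fold (3.22 ± 0.166, adjusted p = 7.56e-13), again with no overlap. SLC2A3, the high-affinity glucose transporter GLUT3, went from 9.20, 9.04 and 8.97 to 11.71 and 11.95, a 6.78-fold rise (2.76 ± 0.0939, adjusted p = 4.89e-16). HK2, the hexokinase that makes glucose 6-phosphate, went from 9.42, 9.38 and 9.43 to 11.93 and 12.00 and rose 5.87-fold (2.55 ± 0.0974, adjusted p = 3.43e-15). Its 3 normal growth values nearly coincided, and its hypoxia values did too. HILPDA, a lipid droplet protein that restrains lipolysis, lay at 9.06, 9.03 and 9.18 in normal growth and at 11.25 and 11.90 in hypoxia (2.48 ± 0.135, adjusted p = 1.46e-12). INSIG2, a membrane protein of the endoplasmic reticulum that holds back the sterol factor SREBP, lay at 7.75, 7.64 and 7.66 and then at 9.85 and 10.42 (2.45 ± 0.163, adjusted p = 3.47e-11). For these last genes replicate 1 was the lower of the hypoxia arrays, yet it stood clear of normal growth. BHLHE40, a transcriptional repressor, rose by 2.22 ± 0.111, ARRDC3, an alpha-arrestin, by 2.11 ± 0.1, MXD1, a MAX partner that opposes MYC, by 2.07 ± 0.127 and DUSP1, a phosphatase of MAP kinases, by 2.06 ± 0.0939. Over the leave-one-out fits the change of ANKRD37 ran from 3.25 to 3.42, that of HK2 from 2.52 to 2.58 and that of INSIG2 from 2.16 to 2.74.

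**Figure D3:**
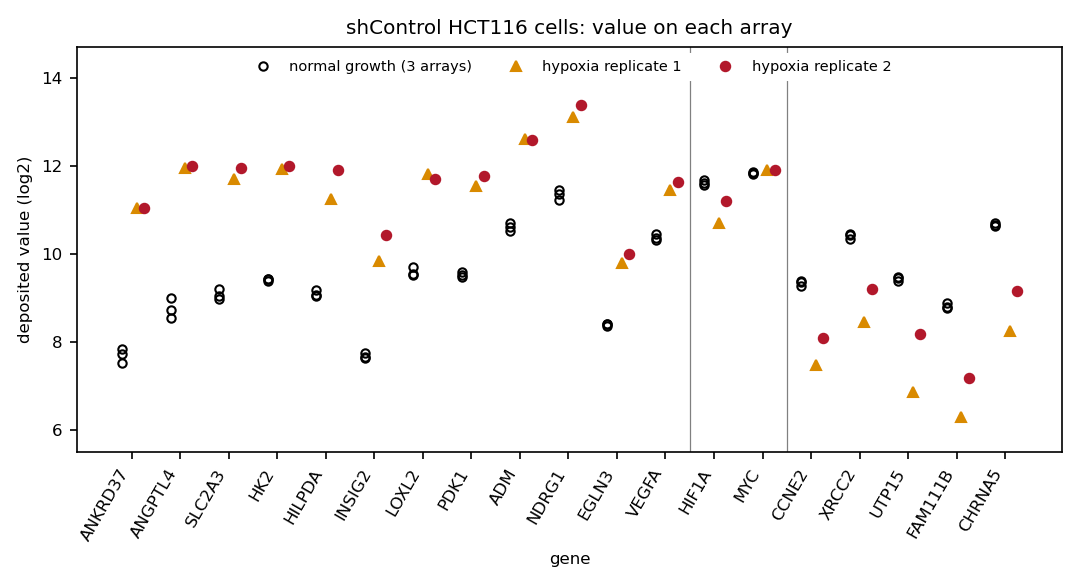
Level of 19 genes in log2 units (vertical) on each array. Open circles are the 3 normal growth arrays, triangles hypoxia replicate 1 and filled circles hypoxia replicate 2. Grey lines separate raised genes (left), HIF1A and MYC (middle), and lowered genes (right). In the lowered genes replicate 1 lies below replicate 2.

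The promoters of 4 of these raised genes and of 1 lowered gene are shown because they hold the letters that HIF and many basic helix-loop-helix factors recognise. Each is the 250 bases before the RefSeq start of the gene in GRCh38.p14, written 5′ to 3′ on the strand of the gene. Capitals mark ACGTG, its reverse complement CACGT, and CACGTG, which holds ACGTG on both strands. ANKRD37 is at chr4:185396591-185396840 (plus strand), ANGPTL4 at chr19:8363905-8364154 (plus), HK2 at chr2:74833877-74834126 (plus), INSIG2 at chr2:118088221-118088470 (plus) and UTP20, a ribosome assembly gene that fell, at chr12:101279855-101280104 (plus).
ANKRD37: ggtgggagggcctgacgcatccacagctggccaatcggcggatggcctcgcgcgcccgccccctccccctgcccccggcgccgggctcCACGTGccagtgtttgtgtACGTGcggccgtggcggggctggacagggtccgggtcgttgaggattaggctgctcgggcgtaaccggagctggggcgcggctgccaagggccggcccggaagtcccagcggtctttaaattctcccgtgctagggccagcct
ANGPTL4: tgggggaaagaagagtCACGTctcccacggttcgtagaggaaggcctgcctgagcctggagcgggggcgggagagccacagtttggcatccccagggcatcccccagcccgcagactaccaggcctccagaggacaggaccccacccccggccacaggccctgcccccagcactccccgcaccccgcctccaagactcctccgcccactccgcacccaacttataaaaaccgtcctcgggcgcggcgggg
HK2: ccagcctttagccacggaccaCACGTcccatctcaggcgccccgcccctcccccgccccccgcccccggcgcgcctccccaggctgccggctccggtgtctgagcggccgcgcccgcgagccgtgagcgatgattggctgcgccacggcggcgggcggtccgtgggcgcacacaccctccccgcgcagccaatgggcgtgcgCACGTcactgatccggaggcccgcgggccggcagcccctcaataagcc
INSIG2: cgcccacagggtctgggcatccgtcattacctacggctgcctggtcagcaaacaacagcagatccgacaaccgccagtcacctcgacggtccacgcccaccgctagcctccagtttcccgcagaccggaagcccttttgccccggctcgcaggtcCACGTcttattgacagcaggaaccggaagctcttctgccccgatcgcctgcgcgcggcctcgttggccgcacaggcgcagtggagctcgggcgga
UTP20: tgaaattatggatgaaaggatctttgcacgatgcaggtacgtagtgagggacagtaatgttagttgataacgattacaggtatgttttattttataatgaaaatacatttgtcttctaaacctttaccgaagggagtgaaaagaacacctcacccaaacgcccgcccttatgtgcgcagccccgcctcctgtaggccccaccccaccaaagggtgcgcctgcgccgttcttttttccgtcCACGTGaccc
ANKRD37 holds the palindrome CACGTG and, a little downstream of it, a single ACGTG, while in UTP20 the palindrome sits close to the start. Over the 14228 tested genes with a promoter in the RefSeq table, 21.1% (2999) held ACGTG on either strand within the 250 bases. Of the genes that rose at least 2-fold, 46 of 90 (51.1%) held it, and of those that fell at least 2-fold, 57 of 262 (21.8%). Among all genes that rose, the share was 19.7% and among those that fell 23.9%. The letters ACGTG stood outside the palindrome in 37.8% of the promoters raised at least 2-fold, 12.2% of those lowered at least 2-fold and 14.6% of all. CACGTG stood in 17.8% of the raised promoters and 7.9% of all. GCGTG, the other reading of the HIF core, was common everywhere, in 44.4% of the raised promoters and 39.7% of all. The raised promoters held a median of 23.5 CpG dinucleotides against 18 over all, and the part of base composition in these shares was not tested. Without hypoxia replicate 1 the share with ACGTG was 45.9% (51 of 111 genes raised at least 2-fold), without replicate 2 it was 37.4%, and with the DMSO arrays as the reference 29.8%. PDK1, PFKFB4, KDM3A and ADM, all strongly raised, hold no ACGTG in this window. A match here is a description of letters, not a binding site.

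Of 20 measured genes of glucose uptake and glycolysis, 17 rose and 2 fell, and the median change of the list was 0.69 (0.56 on replicate 1 and 0.73 on replicate 2). Without replicate 1, 16 rose. Both glucose transporters rose: beside SLC2A3, the ubiquitous transporter SLC2A1 (GLUT1) went from 11.71, 11.67 and 11.85 to 12.87 and 12.77, a rise of 1.07 ± 0.0521 (adjusted p = 2.55e-13). At the hexokinase step HK1 rose by 0.78 ± 0.0806, and GPI, which isomerises the product, rose by 0.70 ± 0.0649. The isoforms of phosphofructokinase, the committed step, went different ways. PFKL rose by 0.70 ± 0.0688 and PFKP by 0.59 ± 0.0703. PFKM lay at 10.76, 10.96 and 10.87 in normal growth and at 10.55 and 10.68 in hypoxia, a fall of 0.25 ± 0.076 that was -0.19 (adjusted p = 0.172) without replicate 1. The enzymes that set fructose 2,6-bisphosphate, the activator of that step, were split too. PFKFB4 went from 8.30, 8.05 and 8.13 to 10.06 and 10.63 (2.19 ± 0.141) and PFKFB3 rose by 0.69 ± 0.0655. PFKFB2 fell by 0.38 ± 0.135 (-0.23, adjusted p = 0.383, without replicate 1), and PFKFB1 was not called (-0.14 ± 0.107, adjusted p = 0.278). Among aldolases and enolases the fitted change was larger for the tissue-restricted isoforms, a difference that was not tested. ALDOC lay at 10.63, 10.18 and 10.46 in normal growth and at 12.90 and 12.77 in hypoxia, a rise of 2.41 ± 0.127, while ALDOA rose by 0.32 ± 0.0554. ENO2 went from 10.03, 9.86 and 9.83 to 12.03 and 12.37 (2.29 ± 0.0924), while ENO1 rose by 0.37 ± 0.0526. The remaining steps rose too, PGK1 by 0.71 ± 0.0577, PKM by 0.25 ± 0.0418, TPI1 by 0.24 ± 0.0617 (not called without replicate 2) and GAPDH by 0.13 ± 0.042 (not called without replicate 1). These last enzymes are among the brightest signals on the arrays, GAPDH at up to 14.04 in normal growth against 14.14 and 14.15 in hypoxia, close to the shared maximum of 14.29, which can shorten their changes.

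At the branch from pyruvate to the mitochondria, the gatekeeping genes changed in opposite directions. PDK1, the kinase that shuts pyruvate dehydrogenase, lay at 9.57, 9.48 and 9.53 in normal growth and at 11.55 and 11.76 in hypoxia, a 4.37-fold rise (2.13 ± 0.0987, adjusted p = 1.39e-13). PDK3 rose by 1.23 ± 0.103, whereas PDK2 fell by 0.69 ± 0.0777. MPC1, a subunit of the mitochondrial pyruvate carrier, went from 8.97, 8.91 and 8.89 to 8.17 and 8.15 (-0.76 ± 0.0892), and PDHA1, a subunit of the dehydrogenase itself, fell by 0.51 ± 0.0898. LDHA, the muscle-type lactate dehydrogenase subunit, rose by 0.33 ± 0.0558 and LDHB, the heart-type subunit, fell by 0.26 ± 0.0556 (not called without replicate 1). CA12, a carbonic anhydrase at the cell surface, rose by 0.51 ± 0.103, and SLC4A7, a bicarbonate transporter, by 0.43 ± 0.149. SLC4A7 rested on replicate 2: it lay at 9.13, 9.08 and 9.16 in normal growth and at 9.20 and 9.91 in hypoxia, and without replicate 2 its change was 0.073 and not called. In this list of lactate, pH and pyruvate genes 5 of 15 rose and 7 fell, with a median of -0.06. Without replicate 1 there were 5 and 4. In glycogen and hexosamine metabolism 7 of 12 rose and 2 fell (6 and 1 without replicate 1). GBE1, the glycogen branching enzyme, went from 8.80, 8.69 and 8.73 to 10.23 and 10.41 (1.58 ± 0.106), with no overlap. PPP1R3B, which brings a phosphatase to glycogen, rose by 0.84 ± 0.112, glycogen synthase GYS1 by 0.79 ± 0.0644 and phosphoglucomutase PGM1 by 0.63 ± 0.0834. The falling members were the pentose phosphate enzymes PGD (-0.22 ± 0.0535, not called without replicate 1) and TALDO1 (-0.24 ± 0.0585).

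The HIF hydroxylases that are themselves known HIF targets rose. EGLN3, a prolyl hydroxylase, lay at 8.41, 8.39 and 8.35 in normal growth and at 9.79 and 9.99 in hypoxia (1.51 ± 0.0948, adjusted p = 1.39e-11). EGLN1, the main hydroxylase, lay at 9.49, 9.49 and 9.48 and then at 10.44 and 10.52 (1.00 ± 0.0801, adjusted p = 9.18e-10). CITED2, which competes with HIF for the coactivators p300 and CBP, rose by 0.80 ± 0.0543. The mRNA of HIF1A, whose protein is set mainly by its stability, fell: 11.56, 11.68 and 11.61 in normal growth against 10.69 and 11.19 in hypoxia (-0.68 ± 0.107, adjusted p = 1.87e-05). Replicate 1 was the lowest, and without it the change was -0.43 (adjusted p = 0.00412). The other alpha subunit EPAS1 (HIF-2 alpha) went the other way, from 9.77, 9.71 and 9.69 to 10.37 and 10.36 (0.64 ± 0.0705). The partner ARNT rose by 0.16 ± 0.0657 (adjusted p = 0.0482; 0.088 and not called without replicate 2). VHL fell by 0.52 ± 0.0902. HIF1AN, the asparagine hydroxylase, fell by 0.71 ± 0.172, from 9.22, 9.22 and 9.20 to 8.16 and 8.83, and EP300, which encodes p300, by 0.29 ± 0.0828. Both losses rested on replicate 1: without it they were -0.38 (adjusted p = 0.166) and -0.10 (adjusted p = 0.443). HIF3A (0.23 ± 0.12, adjusted p = 0.118), ARNT2 (-0.27 ± 0.122, adjusted p = 0.0717) and CREBBP (-0.14 ± 0.0631, adjusted p = 0.0663) were not called. In all 5 of 12 members rose and 4 fell (5 and 2 without replicate 1).

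Genes known to remove or adapt mitochondria in low oxygen rose in part. BNIP3, a receptor for mitophagy, went from 10.82, 10.58 and 10.55 to 12.50 and 12.60 (1.90 ± 0.106), and its relative BNIP3L rose by 1.23 ± 0.0851. FAM162A, a mitochondrial protein linked to cell death in hypoxia, rose by 1.92 ± 0.123, MXI1, a MAX partner that opposes MYC, by 1.19 ± 0.0679 and COX4I2, the hypoxic isoform of a cytochrome oxidase subunit, by 0.42 ± 0.165. COX4I2 lay at 7.51 on replicate 1 and 7.01 on replicate 2, and without replicate 1 it was not called. HIGD1A, a small protein of the respiratory complexes often counted among HIF targets, fell by 0.81 ± 0.098, and ISCU, the scaffold for iron-sulphur clusters, by 0.57 ± 0.113 (-0.30, adjusted p = 0.0526, without replicate 1). Of 10 members 5 rose and 2 fell (4 and 1 without replicate 1).

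Most genes of the wider hypoxia stress list rose. Of 35 members 28 rose, and the median change was 0.76 (0.78 on replicate 1 and 0.86 on replicate 2). Without replicate 1, 26 rose. Under quantile, loess and median scaling the median stayed between 0.68 and 0.88. NDRG1, a growth-restraining protein used as a marker of hypoxia, lay at 11.45, 11.35 and 11.23 in normal growth and at 13.10 and 13.38 in hypoxia (1.89 ± 0.0988), and DDIT4, which restrains mTORC1, rose by 1.77 ± 0.123. In vessel and vascular-tone signalling 11 of 21 rose (8 without replicate 1), with a median of 0.31 that was 0.48 on replicate 1 and 0.16 on replicate 2. ADM, the vasodilator peptide adrenomedullin, went from 10.69, 10.52 and 10.62 to 12.61 and 12.58 (1.99 ± 0.0802). VEGFA, the vascular endothelial growth factor, went from 10.45, 10.35 and 10.31 to 11.44 and 11.63 (1.17 ± 0.0676), and the ephrin EFNA3 rose by 0.94 ± 0.116. All 3 genes lay higher on both hypoxia arrays than on any normal growth array.

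Oxygen is also a substrate of enzymes that modify collagen and chromatin, and several of their genes rose. LOXL2, a lysyl oxidase that cross-links collagen, lay at 9.69, 9.55 and 9.53 in normal growth and at 11.82 and 11.71 in hypoxia (2.18 ± 0.0753, adjusted p = 4.89e-16). The collagen lysyl hydroxylase PLOD2 rose by 2.00 ± 0.134, and the prolyl hydroxylase subunits P4HA1 and P4HA2 by 1.97 ± 0.115 and 1.46 ± 0.0888. LOXL3, a relative of LOXL2, fell: 7.71, 7.62 and 7.77 against 7.67 and 7.17 (-0.28 ± 0.112, adjusted p = 0.0413; -0.53 without replicate 1 and -0.034, not called, without replicate 2), with replicate 1 inside the range of normal growth. In this list 7 of 17 rose and 1 fell (5 and 1 without replicate 1), and its median was 0.57 on replicate 1 but 0.08 on replicate 2. Among 22 histone demethylases and related oxygenases 8 rose and 6 fell (10 and 5 without replicate 1). KDM3A, which removes methyl groups from lysine 9 of histone H3, went from 8.89, 8.81 and 8.79 to 10.55 and 11.08 (1.99 ± 0.127). KDM4C rose by 1.16 ± 0.178 and JMJD6 by 0.83 ± 0.0822. RIOX2, a ribosomal oxygenase of the nucleolus, went down from 9.06, 9.02 and 9.12 to 7.58 and 8.06 (-1.25 ± 0.147). Of 13 iron and haem genes 1 rose, transferrin (TF, 0.43 ± 0.168), and 4 fell. These were ferrochelatase (FECH, -0.77 ± 0.103), the iron transporter SLC11A2 (-0.69 ± 0.145), haem oxygenase HMOX2 (-0.31 ± 0.0835) and ALAS1, the first enzyme of haem synthesis (-0.23 ± 0.0629). Without replicate 1 TF, SLC11A2 (-0.38, adjusted p = 0.0783) and ALAS1 were not called, and without replicate 2 HMOX2 (-0.23) was not.

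Genes of DNA replication fell almost throughout. Of 47 measured S phase genes 44 fell, and the median change was -0.70 (-0.88 on replicate 1 and -0.68 on replicate 2). Without replicate 1, 37 fell, and under the other scalings between 33 and 44 fell, with medians from -0.78 to -0.47. CCNE2, a cyclin that starts S phase, lay at 9.36, 9.38 and 9.28 in normal growth and at 7.46 and 8.08 in hypoxia (-1.57 ± 0.172, adjusted p = 1.16e-07). POLE2, a subunit of the leading-strand polymerase, fell by 1.39 ± 0.15, MCM10, which helps to fire origins, by 1.22 ± 0.0908 and the cyclin CCNE1 by 1.18 ± 0.106. Outside the list, FAM111B, a trypsin-like protease, went from 8.77, 8.80 and 8.88 to 6.28 and 7.19 and was 4.24-fold lower (-2.08 ± 0.193, adjusted p = 8.75e-09; -1.63 without replicate 1). CLSPN, the checkpoint adaptor claspin, fell by 1.89 ± 0.19. For all of these genes the groups did not overlap, as for 60.6% of all genes, and replicate 1 was the lower hypoxia array. In these bulk samples, fewer cells in S phase and less of these mRNAs per cell cannot be told apart.

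DNA repair genes fell with them. Of 25 members 24 fell, with a median of -0.77 that was -1.11 on replicate 1 and -0.45 on replicate 2, and without replicate 1, 18 fell. XRCC2, which acts in recombination repair, lay at 10.33, 10.43 and 10.46 in normal growth and at 8.44 and 9.20 in hypoxia (-1.59 ± 0.155, adjusted p = 2.07e-08). The helicase BRIP1 fell by 1.53 ± 0.151, its partner BRCA1 by 1.28 ± 0.128 and the nuclease-helicase DNA2 by 1.11 ± 0.154. The mitosis list was less uniform. Of 47 genes 26 fell and 2 rose, but without replicate 1, 8 fell and 4 rose. The share lower was 55.3% at a mean level of 9.95, near the 49.8% of the brightest of the 5 groups of genes by level. The median of the mitosis list was -0.48 on replicate 1 and -0.09 on replicate 2. The scalings gave medians from -0.35 to 0.02 with 5 to 27 genes lower. CDC25A, the phosphatase that activates cyclin-dependent kinases, fell by 1.18 ± 0.124, SPC25, a kinetochore protein, by 1.14 ± 0.128, KIF20B, a kinesin of cytokinesis, by 1.15 ± 0.193 and CENPK, a centromere protein, by 1.10 ± 0.165. The last pair were -0.68 and -0.69 without replicate 1. The genes that rose were UBE2C, a ubiquitin-conjugating enzyme of the anaphase-promoting complex (0.67 ± 0.0669), and ANLN, a scaffold of the contractile ring (0.26 ± 0.093). ANLN lay at 11.56, 11.63 and 11.56 in normal growth and at 11.67 and 12.03 in hypoxia, and without replicate 2 its change was 0.081 and not called. Of 44 replication-dependent histone genes 17 fell and 3 rose (10 and 1 without replicate 1), among them H3C12 (-1.05 ± 0.186; -0.59 without replicate 1), H3C1 (-0.98 ± 0.0923), H2AC17 (-0.95 ± 0.158) and H2BC14 (-0.86 ± 0.0992). Histone genes are close copies of each other, so probes may share signal among them. The raised ones were H2BC3 (0.51 ± 0.122), H2BC8 (0.40 ± 0.103) and H2AC8, which lay at the floor of the values in normal growth.

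Genes that build ribosomes made up another uniform group. Of 38 members 34 fell, with a median of -0.73 (-0.85 on replicate 1 and -0.56 on replicate 2), and 34 fell without replicate 1. The scalings gave 32 to 34 lower genes and medians from -0.81 to -0.49. UTP15, a component of the small-subunit processome, lay at 9.37, 9.44 and 9.48 in normal growth and at 6.85 and 8.18 in hypoxia (-1.92 ± 0.205, adjusted p = 7.8e-08). The gap between its hypoxia replicates was wide, and without replicate 1 the change was -1.26. UTP20, of the same complex, went from 9.65, 9.50 and 9.52 to 7.54 and 8.27 (-1.66 ± 0.132). UTP14A fell by 1.35 ± 0.122 and RRS1, which assembles the large subunit, by 1.26 ± 0.0999. Outside the list LTV1, an export factor of the small subunit, fell by 1.73 ± 0.158 and POP1, a subunit of RNase MRP, by 1.45 ± 0.144. MYC, which drives this programme in many cells, was not called: 11.84, 11.87 and 11.81 in normal growth against 11.90 and 11.90 in hypoxia (0.06 ± 0.0501, adjusted p = 0.334). Of 13 genes of MYC and its partners 5 rose and 4 fell (3 and 2 without replicate 1). The risers were the antagonists MXD1, MXI1, MNT (0.72 ± 0.0861) and MXD3 (0.23 ± 0.0793), beside MYCN (0.50 ± 0.172). MGA (-0.49 ± 0.116), MLXIP (-0.33 ± 0.0737), the common partner MAX (-0.24 ± 0.0708) and MLX (-0.22 ± 0.0564) fell. MYCN, MXD3, MGA and MLXIP were not called without replicate 1, and MAX and MLX were not called without replicate 2.

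Of 40 genes of the mitochondrial ribosome and protein import 29 fell and 1 rose (26 and 1 without replicate 1), with a median of -0.44. TIMM8A, an import chaperone, fell by 1.17 ± 0.15, and the ribosomal proteins MRPS23, MRPL20 and MRPS12 by 1.13 ± 0.127, 0.97 ± 0.104 and 0.90 ± 0.0942. MRPL17 was the exception (0.45 ± 0.0545). In oxidative phosphorylation 23 of 49 genes fell and 1 rose, at a median of -0.20 (15 and 1 without replicate 1). In the brightest of the 5 groups of genes by level 49.8% fell, at a median of -0.19. This list, at a mean level of 10.39, did not exceed that share, with 46.9% lower. Against DMSO 33 fell and 4 rose, and against high glucose 33 fell and 1 rose. COX7B, a cytochrome oxidase subunit, shows how far 1 array could decide a value. It lay at 7.47, 7.38 and 7.10 in normal growth, at 5.02 on hypoxia replicate 1 and at 7.28 on replicate 2 (-1.16 ± 0.41, adjusted p = 0.0241; -0.03 without replicate 1). UQCRC1, a core protein of complex III, was the riser (0.27 ± 0.0887; 0.28, adjusted p = 0.0823, without replicate 1). COA7, an assembly factor of cytochrome oxidase outside the list, fell by 1.60 ± 0.111. In the TCA cycle 7 of 15 genes fell and 2 rose (5 and 2 without replicate 1). At a mean level of 10.6, this list too lay near the brightest group, with 46.7% lower and a median of -0.18. IDH3A, a subunit of the NAD-linked isocitrate dehydrogenase, went from 12.36, 12.29 and 12.27 to 11.66 and 11.67 (-0.64 ± 0.0668). Pyruvate carboxylase (PC, 0.56 ± 0.103) and the NADP-linked isocitrate dehydrogenase IDH2 (0.52 ± 0.107) rose.

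**Figure D4:**
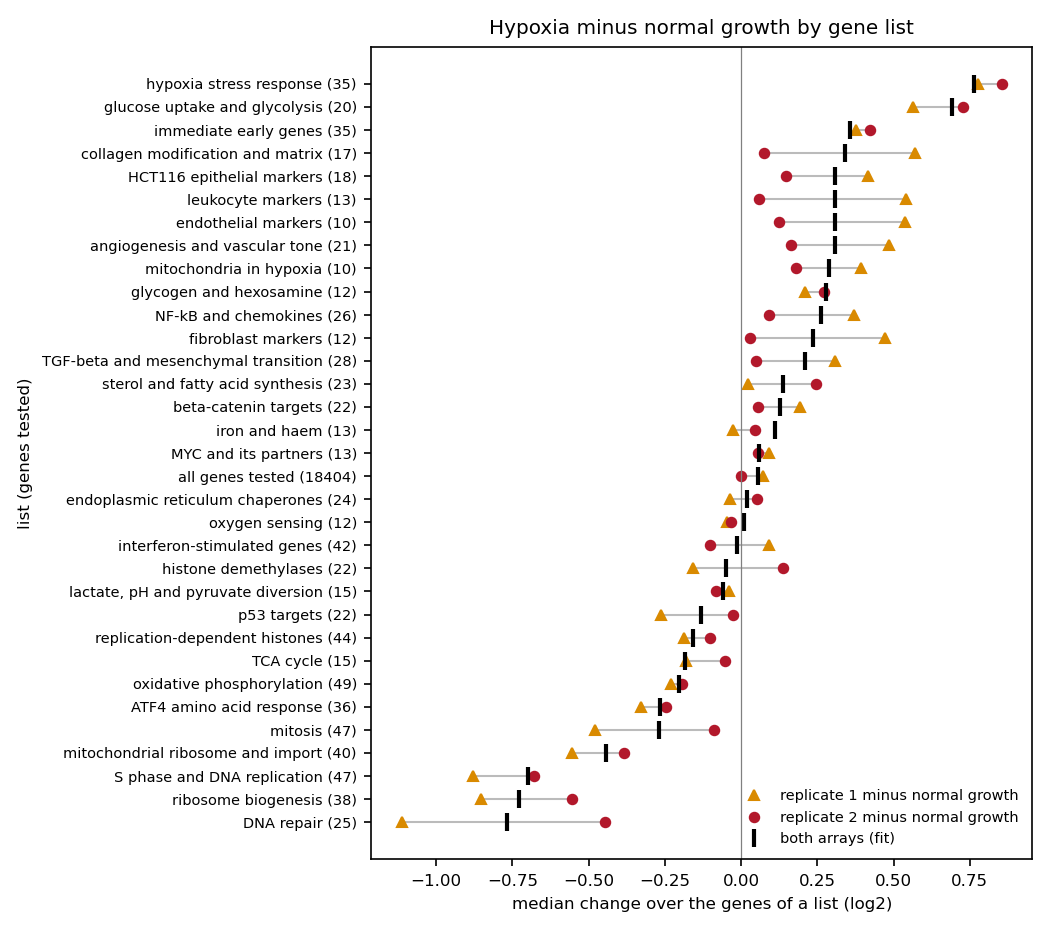
Median change of each gene list in log2 units against normal growth (horizontal). Triangles are hypoxia replicate 1, circles replicate 2 and black bars the fit of both. The bars of glycolysis and hypoxia stress genes lie at 0.69 and 0.76, and those of S phase and ribosome biogenesis genes at -0.70 and -0.73. The marker lists lie higher on replicate 1 than on replicate 2.

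Other large falls belonged to no single list. CHRNA5, a nicotinic acetylcholine receptor subunit, lay at 10.70, 10.63 and 10.66 in normal growth and at 8.25 and 9.16 in hypoxia (-1.96 ± 0.152). POGLUT1, which glycosylates Notch, fell by 1.99 ± 0.172, PIGW, an enzyme of membrane-anchor synthesis, by 1.72 ± 0.124, CTNS, the lysosomal cystine transporter, by 1.71 ± 0.101 and TLR3, a sensor of double-stranded RNA, by 1.75 ± 0.114. SLC10A5, a member of a solute carrier family, lay at 8.20, 8.07 and 8.28 in normal growth and at 5.74 and 6.96 in hypoxia (-1.83 ± 0.251; -1.22 without replicate 1). YAE1, which helps to mature a ribosome recycling factor, fell by 1.62 ± 0.182 (-1.05 without replicate 1) and the nuclease DCLRE1A by 1.53 ± 0.191. The replicate spread was wide for SLC10A5 and YAE1 and narrow for CTNS, which lay at 7.35 and 7.30 in hypoxia. Over all alternative runs the smallest fall of these genes ranged from -0.31 for SLC10A5 and -0.42 for TLR3 to -1.40 for CHRNA5. SLC10A5 was not called in every run.

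ATF4 is the factor that answers amino acid shortage, and its target list fell on balance against normal growth. Of 36 members 22 fell and 7 rose (16 and 5 without replicate 1), with a median of -0.27. CHAC1, which degrades glutathione, went from 11.75, 11.25 and 11.28 to 9.95 and 9.51 (-1.70 ± 0.132). SLC7A11, the cystine importer, went from 11.57, 11.69 and 11.73 to 9.71 and 10.47 (-1.58 ± 0.145), and the glycine transporter SLC6A9 fell by 1.25 ± 0.0729. DDIT3, which encodes the stress factor CHOP, rose by 0.92 ± 0.13. Against the DMSO arrays the signs of several members turned: CHAC1 was 1.32 higher in hypoxia, SLC7A11 0.48 higher and SLC6A9 0.09 higher, and 18 members rose while 5 fell, where 19.6% of all genes rose and 18.4% fell. Against high glucose 9 rose and 16 fell, where 30.8% of all genes rose and 33% fell. The direction of this list therefore depended on which normoxic group served as reference. CHAC2, a relative of CHAC1, fell by 1.43 ± 0.13. Of 24 chaperones of the endoplasmic reticulum 7 rose and 6 fell (7 and 2 without replicate 1). EDEM1, which marks misfolded proteins for disposal, rose by 1.10 ± 0.149, HERPUD1, of the same pathway, by 0.52 ± 0.0655, and the reductase DNAJC10 fell by 0.81 ± 0.152 (-0.37 without replicate 1).

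Of 23 genes of sterol and fatty acid synthesis 10 rose and 3 fell (11 and 2 without replicate 1). INSIG1, the partner of INSIG2 in holding back SREBP, went from 9.76, 9.60 and 9.55 to 11.49 and 11.52 (1.86 ± 0.0824, adjusted p = 5.8e-14). The sterol carrier STARD4 rose by 1.62 ± 0.142 and the oxygen-using sterol enzyme MSMO1 by 0.78 ± 0.11. The fatty acid enzymes ELOVL6 (-1.03 ± 0.166; -0.53 without replicate 1), ACACA (-0.52 ± 0.0806) and ACLY (-0.17 ± 0.0522; not called without replicate 1) fell. Immediate early genes, which answer growth factor and stress signals within minutes, rose in 22 of 35 cases, with 1 lower (19 and 1 without replicate 1) and a median of 0.36. The orphan nuclear receptor NR4A1 lay at 9.07, 9.03 and 8.96 in normal growth and at 10.49 and 10.62 in hypoxia (1.54 ± 0.102). KLF4, a zinc finger factor of epithelial differentiation, rose by 1.49 ± 0.107 and NR4A3 by 1.32 ± 0.0882, while ETV5, a target of MAP kinase signalling, fell by 0.41 ± 0.0697.

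Of 22 p53 targets 8 fell and 4 rose (6 and 2 without replicate 1). TIGAR, which lowers fructose 2,6-bisphosphate, went from 7.62, 7.70 and 7.67 to 5.91 and 6.14 (-1.64 ± 0.135), and the death receptor FAS fell by 0.92 ± 0.144. The risers were the stress kinase PLK3 (0.67 ± 0.0775), the death factor BBC3 (0.43 ± 0.164), SPATA18 (0.28 ± 0.101) and the DNA damage sensor DDB2 (0.21 ± 0.0833). BBC3 was 9.24 on replicate 1 and 8.51 on replicate 2, and BBC3 and SPATA18 were not called without replicate 1 and DDB2 was not called without replicate 2. Of 42 interferon-stimulated genes 16 fell and 6 rose (11 and 2 without replicate 1), led by SAMD9 (-1.36 ± 0.176; 0.27 against DMSO) and IFIT5 (-0.94 ± 0.141). Of 26 NF-kB genes 13 rose and 3 fell (7 and 3 without replicate 1). The coactivator BCL3 rose by 0.89 ± 0.0838, the chemokine CXCL8 by 0.81 ± 0.134, the cytokine LIF by 0.72 ± 0.103 and the subunit NFKB2 by 0.60 ± 0.0773, while NFKB1 (-0.56 ± 0.0923), TNFAIP2 (-0.37 ± 0.0754) and CSF1 (-0.17 ± 0.0659) fell. CSF1 lay at 8.16, 8.18 and 8.15 against 8.10 and 7.87, and without replicate 2 its change was -0.059 and not called. Of 22 beta-catenin targets, in a line whose CTNNB1 gene is mutant, 7 rose and 3 fell (4 and 4 without replicate 1). The factor SOX9 went from 10.03, 9.99 and 10.11 to 11.06 and 11.02 (1.00 ± 0.0651), and the ligand BMP4 (-0.88 ± 0.069) and the negative regulators ZNRF3 (-0.62 ± 0.0789) and RNF43 (-0.60 ± 0.0916) fell. RNF43 was 2.13 higher in hypoxia when set against DMSO. Of 28 TGF-beta and mesenchymal genes 10 rose and 3 fell, but without replicate 1 only 1 rose and 3 fell. ID3, a target of BMP signalling, fell by 0.71 ± 0.0777, and the integrin ITGAV by 0.24 ± 0.0726 (not called without replicate 1).

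The identity of the cells was checked with marker lists. The epithelial markers of the line summed to 33440 to 34180 on a linear scale in normal growth and to 39600 to 39700 in hypoxia, and 11 of 18 rose and 1, KRT20 (-0.36 ± 0.107; -0.19 and not called without replicate 2), fell (5 and 1 without replicate 1). ELF3, an epithelial ETS factor, rose by 0.85 ± 0.11. Markers of other cell types had summed levels of 1500 to 1532 for fibroblasts, 1692 to 1733 for leukocytes and 760.2 to 796.5 for endothelium in normal growth. In hypoxia they were 1895 to 2331, 3070 to 3707 and 834.2 to 1168. The fibroblast markers LUM and DCN lay at the floor on all normal growth arrays, LUM in hypoxia too, and the leukocyte antigen PTPRC lay at 4.32 to 4.47 in normal growth and 4.43 and 4.40 in hypoxia. CD68, a lysosomal protein that many cell types express, rose from 9.55, 9.58 and 9.50 to a mean of 11.07 (1.52 ± 0.0709). Of 13 leukocyte markers 5 rose, the others being NKG7, LYZ, CD79A and CSF1R at 0.33 to 0.47, and 5 of 12 fibroblast markers rose, COL1A1 (0.79 ± 0.0947) and COL3A1, COL6A3, COL1A2 and ACTA2 at 0.22 to 0.46. Of 10 endothelial markers ENG (0.50 ± 0.174) and PECAM1 (0.41 ± 0.141) rose. Without replicate 1 only CD68, LYZ and COL1A1 of these 3 lists were called, and without replicate 2 LYZ was not called. On replicate 2 the medians of the 3 lists were 0.03, 0.06 and 0.12 for fibroblasts, leukocytes and endothelium, against 0.47, 0.54 and 0.54 on replicate 1. The part of these values in the other results was not tested.

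The choice of normoxic arrays was examined with the DMSO and the high glucose groups, which share the hypoxia arrays with the comparison above. Against DMSO 3602 genes (19.6%) rose and 3391 (18.4%) fell; against high glucose 5675 (30.8%) rose and 6068 (33%) fell. Glycolysis held 16 higher genes against DMSO, with a median of 0.67, and 17 higher and 1 lower against high glucose, with 0.51. Hypoxia stress genes gave 28 higher and 1 lower against DMSO (0.93) and 29 higher and 2 lower against high glucose (0.67). S phase genes gave 43 lower against DMSO (-0.90) and 34 lower and 1 higher against high glucose (-0.53). Ribosome biogenesis gave 36 and 32 lower genes with medians of -0.92 and -0.53. Mitochondrial ribosome genes gave 37 and 33 lower, each with 1 higher. ANKRD37 was 3.35 higher against normal growth, 3.44 against DMSO and 2.90 against high glucose, and ANGPTL4 3.22, 4.13 and 2.50. NDRG1 was 1.89, 2.89 and 2.02 higher in the same order, and SLC2A1 1.07, 1.78 and 0.92. HK2, with 2.55, 2.21 and 2.63, varied little between references, whereas DDIT4, with 1.77, 3.64 and 2.04, varied more. CA12, a gene that many tumours raise in hypoxia, changed by 0.51 against normal growth and by -0.74 against high glucose.

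The hypoxia response was then set against the response of the same line to low glucose, measured as low minus high glucose on arrays of their own. The difference of the responses was called for 5847 genes (31.8%), 2225 (12.1%) higher and 3622 (19.7%) lower in the hypoxia response. Glycolysis separated them: 16 of 20 members were higher in the hypoxia response and 1 lower, with a median difference of 0.70. In low glucose itself 3 rose and 8 fell, where 11.2% of all genes rose and 15.3% fell. ANKRD37 lay at 8.41, 8.19 and 8.20 in low glucose and at 8.17, 8.15 and 8.08 in high glucose, and its response was 3.21 ± 0.155 greater in hypoxia. HILPDA and ANGPTL4 followed with 3.19 ± 0.181 and 3.03 ± 0.223. Stress genes gave 26 higher and 1 lower of 35. In the opposite direction stood the genes of amino acid shortage and of the endoplasmic reticulum. Of 36 ATF4 genes 30 were lower in the hypoxia response, where 32 had risen in low glucose with a median of 0.63, and of 24 chaperones 17 were lower, where 20 had risen. CHAC1 lay at 11.68, 11.69 and 11.70 in low glucose against 10.14, 10.02 and 10.07 in high glucose, a difference of responses of -3.31 ± 0.177. SPX, which encodes the peptide spexin, lay at 8.53, 8.54 and 8.69 in low glucose and at 4.96, 4.88 and 5.27 in high glucose, against 4.96, 5.30 and 5.38 in normal growth and 5.07 and 4.99 in hypoxia (-3.73 ± 0.194). LURAP1L, an adaptor protein gene, lay at 11.56, 11.41 and 11.54 in low and 8.52, 8.51 and 8.51 in high glucose, with no call in hypoxia (-2.97 ± 0.123 between the responses). S phase genes fell in both stresses, 44 of 47 in hypoxia and 43 in low glucose, and the difference was called for 13 members, 3 higher and 10 lower. Ribosome biogenesis did not move alike: 34 of 38 members fell in hypoxia, while in low glucose 9 rose and 5 fell, and the difference was called lower for 35, with a median of -0.69. Mitosis genes fell in low glucose (41 of 47), and 18 were higher and 2 lower in the hypoxia response. Without hypoxia replicate 1 the difference was called for 4258 genes, without hypoxia replicate 2 for 9421. Without replicate 1, which leaves 1 hypoxia array, more mitosis genes were called higher. Fewer ATF4 and ribosome biogenesis genes were called lower. The shares of all genes called each way in that fit are not given here.

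The last comparison asked whether the hypoxia response was the same in lines with less CDK8 or CDK19. Within shControl cells neither kinase gene was called in hypoxia. The cluster that CDK8 shares with ADRA1B lay at 10.36, 10.22 and 10.23 in normal growth and at 9.79 and 10.31 in hypoxia (-0.22 ± 0.197, adjusted p = 0.392), and CDK19 changed by 0.06 ± 0.114 (adjusted p = 0.687). The response of the shCDK8 line differed from that of shControl cells for 2118 genes (11.5%), 1667 (9.06%) higher and 451 (2.45%) lower. Without shControl hypoxia replicate 1 these were 1092, with 737 (4%) higher and 355 (1.93%) lower; without shControl hypoxia replicate 2 they were 6947, and without shCDK8 hypoxia replicate 1 they were 1121. For genes of replication and ribosome building the fall was smaller in the shCDK8 line. The difference was called higher for 29 of 47 S phase genes, with a median of 0.50 (17 without replicate 1), and for 27 of 38 ribosome biogenesis genes, with 0.45 (17 without it). In the shCDK8 line itself, where 3.52% of all genes rose and 5.57% fell, 17 S phase genes and 10 ribosome biogenesis genes fell, and 1 of the latter rose. Some members started lower in that line. POLE2 lay at 8.52, 9.02 and 9.04 in its normal growth and at 8.51 and 8.26 in hypoxia. In shControl cells POLE2 lay at 9.84, 9.79 and 9.86 and then at 8.06 and 8.81. MCM10 also started lower, whereas CCNE2 did not. The part of the starting level in the smaller fall was not tested. CCNE2 lay at 9.19, 9.78 and 9.78 in shCDK8 normal growth and at 9.34 and 9.33 in hypoxia. CHRNA5 lay at 10.03, 10.33 and 10.22 and then at 9.81 and 9.75, and its response differed by 1.55 ± 0.215. FAM111B (1.53 ± 0.273) and SLC10A5 (1.79 ± 0.355) differed the same way. On the raised side the response was smaller for some genes. ANKRD37 lay at 7.26, 7.77 and 7.43 in shCDK8 normal growth and at 8.59 and 8.57 in hypoxia, a response of 1.10 against 3.35 in shControl cells (difference -2.25 ± 0.164). INSIG1 lay at 9.32, 9.67 and 9.58 and then at 9.11 and 9.08 (difference -2.30 ± 0.117), and DUSP1 at 9.05, 9.38 and 9.16 and then at 9.18 and 9.14 (difference -2.09 ± 0.133). In the shCDK8 line ANKRD37 still lay above normal growth on both hypoxia arrays, INSIG1 lay below it on both, and DUSP1 overlapped. Of 23 sterol genes 13 had a lower response, with a median of -0.43 (14 without replicate 1), and of 35 immediate early genes 15 had a lower and 2 a higher one (14 and 1 without it). Of 20 glycolysis genes 4 had a lower response (7 without replicate 1), and 16 rose in the shCDK8 line. HK2 lay at 8.62, 8.87 and 8.70 and then at 10.75 and 10.71 there. Replicate 1 of shCDK8 normal growth stood apart in its group. Its highest correlation there was 0.9892, against 0.9969 for replicates 2 and 3. Its interquartile range was 3.496, against 3.748 and 3.715. It held the lowest value of its group for POLE2 and CCNE2. Without it the response differed for 1434 genes. Its part in the smaller fall of replication and ribosome genes was not tested.

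In the shCDK19 line the response differed for far fewer genes, 383 (2.08%), 280 (1.52%) higher and 103 (0.56%) lower, or 198 without shControl hypoxia replicate 1. The count rested on single arrays: it was 4567 without shControl hypoxia replicate 2, 80 without shCDK19 hypoxia replicate 2, 198 to 253 without any 1 shControl normal growth array and 214 and 176 without shCDK19 normal growth replicates 2 and 3. Of 20 glycolysis genes 1 differed, and of 47 S phase genes 2. In the shCDK19 line itself, where 11.1% of all genes rose and 20.2% fell, 17 glycolysis genes rose and 42 S phase genes fell. CCNE2 lay at 9.20, 9.08 and 8.95 in shCDK19 normal growth and at 6.97 and 6.45 in hypoxia. ANKRD37 lay at 7.72, 7.62 and 7.68 and then at 11.51 and 11.64. The ATF4 genes stood out, with 15 of 36 responses higher (9 without replicate 1) and a median difference of 0.35. CHAC1 lay at 9.57, 9.51 and 9.52 in shCDK19 normal growth and at 9.87 and 9.72 in hypoxia, so the difference of 1.97 ± 0.187 came with a fall in shControl cells. TSC22D3, a leucine zipper gene known as a glucocorticoid target, lay at 9.06, 9.07 and 9.03 and then at 11.31 and 11.54, against 9.14, 9.08 and 9.25 and then 9.29 and 9.62 in shControl cells (2.08 ± 0.149). FGF9, a fibroblast growth factor, fell in shCDK19 cells from 8.97, 8.90 and 8.51 to 6.95 and 6.87 (difference -1.87 ± 0.208), while in shControl cells it was low and not called. The tyrosine kinase gene FRK (1.56 ± 0.263), the focal adhesion gene TNS4 (-1.01 ± 0.107) and ID3 (-0.96 ± 0.11) also differed. With 1 hairpin line per target, a property of the line and the loss of the kinase cannot be told apart.

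**Figure D5:**
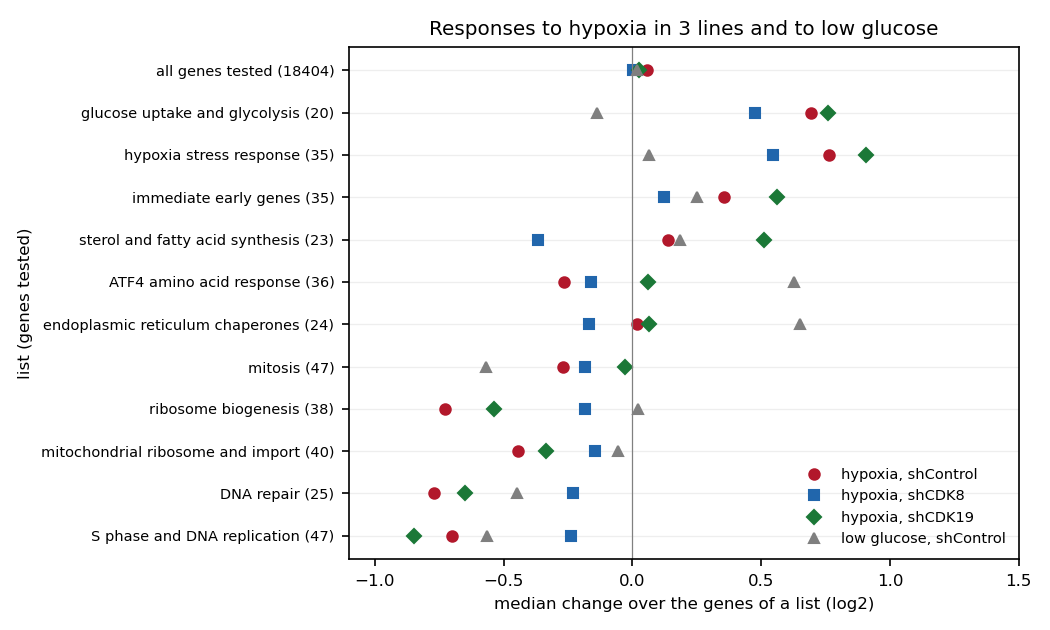
Median response of 11 gene lists and of all genes in log2 units (horizontal): hypoxia minus normal growth in shControl, shCDK8 and shCDK19 cells, and low minus high glucose in shControl cells. Glycolysis lies at 0.69, 0.47 and 0.76 in the hypoxia responses of shControl, shCDK8 and shCDK19 cells and at -0.14 in low glucose, and S phase at -0.70, -0.24, -0.85 and -0.56.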

How the data were processed

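Total RNA of 35 HCT116 samples was measured on Affymetrix HuGene ST gene arrays, and 5 of them make up the comparison described. The deposited values, on the log2 scale, are the output of Partek (version not given) per the submitters' processing notes. How background was corrected and arrays normalized is not given in the sources used. All arrays shared a floor (20 before the logarithm, 4.32 on the log2 scale) and a maximum of 14.29. The changes of dim and of very bright genes can therefore be shortened, and they are relative to the other genes. The floor held 8.48% to 9.97% of the rows of an array. The number of arrays limits the precision.

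Of 32321 transcript clusters 19158 had 1 gene symbol, 1388 several and 11775 none in the platform annotation. For 637 genes with more than 1 cluster the brightest was kept, which left 18404 genes. limma 3.58.1 in R 4.3.3 (with the package data.table, version 1.17.8) fitted 1 mean per group to all 35 arrays in 14 groups (21 residual degrees of freedom), and p-values are two-sided and adjusted by Benjamini-Hochberg at 0.05. The steps were tested on simulated data, in which a gene had the same spread on every array and no shift with level. That test cannot show how many calls are false where 1 hypoxia array stands apart. No 2 arrays held identical values. Alternatives were the authors' own test, a one-way analysis of variance per the series' design text, and other scalings, covariates, references and fits without single arrays. Whether replicate numbers pair the samples is not known. With 2 shared numbers the correlations of their deviations were 0.0791 and 0.0681. The deviations of 2 hypoxia arrays from their mean mirror each other, so these values cannot decide it.

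The 32 gene lists (862 genes, 790 tested) and the genes were chosen with earlier results of these data known. The naming rule took up to 12 genes each way by size of change without overlap, up to 10 each way shared by 3 references, up to 4 per list, up to 5 each way for differences between responses, and the oxygen-sensing list whole. The text names fewer than it allows. The rest of the glycolysis list and LDHA, LDHB, PDHA1, CA12, SLC4A7, PGD, TALDO1, COX4I2, HIGD1A, ISCU, LOXL3, ALAS1, UBE2C, ANLN, H2BC3, H2BC8, H2AC8, MRPL17, UQCRC1, ACACA, ACLY, ETV5, MYC, MXD3, MAX, MLX, MLXIP, MGA, BBC3, SPATA18, DDB2, NFKB1, TNFAIP2, CSF1, RNF43, ITGAV, KRT20, CSF1R, ACTA2, LUM, DCN and PTPRC were named after their values were seen. CA9 had no tested row and was not analysed here. Promoters come from the RefSeq table of GRCh38.p14, matched by Entrez gene identifier.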

Additional observations from a re-analysis of the deposited data

Results flagged for a closer look

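The hypoxia response of shControl cells differed from their low glucose response for 5847 genes, tested as a difference of responses over arrays that the responses do not share. The largest differences upward were ANKRD37 (3.21 ± 0.155), HILPDA (3.19 ± 0.181) and ANGPTL4 (3.03 ± 0.223), and downward SPX (-3.73 ± 0.194), CHAC1 (-3.31 ± 0.177) and LURAP1L (-2.97 ± 0.123). The hypoxia response of the shCDK8 line differed from that of shControl cells for 2118 genes, with SLC10A5 (1.79 ± 0.355), CHRNA5 (1.55 ± 0.215) and FAM111B (1.53 ± 0.273) higher and INSIG1 (-2.30 ± 0.117), ANKRD37 (-2.25 ± 0.164) and DUSP1 (-2.09 ± 0.133) lower. The response of the shCDK19 line differed for 383 genes, with TSC22D3 (2.08 ± 0.149), CHAC1 (1.97 ± 0.187) and FRK (1.56 ± 0.263) higher and FGF9 (-1.87 ± 0.208), TNS4 (-1.01 ± 0.107) and ID3 (-0.96 ± 0.11) lower. In FRK the shControl hypoxia arrays lay apart, at 6.94 and 7.86. Each of these single-gene differences kept its direction and its call in every alternative run made for it. The differences were not run with the interquartile range as a covariate or with array weights. Nor were they run with the mean of all clusters of a gene or with only the arrays of the groups compared. The groups had 2 or 3 arrays, too few to look for single outlying values within a group.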

How the results depend on the processing

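The count of 8801 genes called in hypoxia depended on how the spread was estimated and on the threshold. It was 3242 with the 5 arrays alone (998 higher, 2244 lower), 5214 with the interquartile range of each array as a covariate (2317 and 2897), 2865 with array weights (522 and 2343) and 426 at 2-fold or more (110 and 316). The genes called higher numbered 2332 with each array's median subtracted and 2479 with the normal growth and hypoxia arrays of all lines alone. Leaving out 1 array at a time gave 4549 to 12096 genes in all, 1433 to 6419 higher and 3116 to 5677 lower, the lowest without hypoxia replicate 1 and the highest without replicate 2. It gave 5844 to 8130 against DMSO, 7060 to 13063 against high glucose, 4258 to 9421 for the difference from low glucose, 1092 to 6947 for shCDK8 and 80 to 4567 for shCDK19, whose count was 112 with medians subtracted. Quantile scaling gave 3421 higher and 4254 lower genes, cyclic loess 3071 and 3978 and the methods' analysis of variance 3542 and 4840. With the replicate number as a block, 4271 rose and 5084 fell, though whether the numbers pair the samples is not known. The share of raised promoters with ACGTG was 37.8% with the interquartile range as a covariate and 29.8% against DMSO, and ran from 37.4% to 51.6% without single arrays. Short counts such as the raised p53 targets, fibroblast and endothelial markers also moved without single normal growth arrays. Of 196 named genes, 160 kept their direction and their side of the threshold without hypoxia replicate 1, 33 kept the direction but lost the call, and 3 turned. The call was lost by 14 without hypoxia replicate 2 and by 18, 16 and 13 without normal growth replicates 1, 2 and 3. With the 5 arrays alone 59 lost it, and with array weights 48 did.

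For some named genes the change took the other sign, and its value is given in log2 units. PFKM (0.035), CREBBP (0.10), EP300 (0.18), CHAC1 (1.32), SLC7A11 (0.48), SLC6A9 (0.093), SAMD9 (0.27), SPX (0.083), FGF9 (0.26), TPI1 (-0.059), PFKFB1 (0.32), PGD (0.059), TF (-0.095), MLX (0.025), MAX (0.23), MLXIP (0.12), MGA (0.033), ETV5 (0.24), ITGAV (0.045), CSF1R (-0.036), H2BC8 (-0.19) and RNF43 (2.13) turned against the DMSO arrays. PFKM (0.0014), CREBBP (0.046), LOXL3 (0.091), CDK19 (-0.24), LURAP1L (-0.035), FGF9 (0.39), TNS4 (-0.063), CA12 (-0.74) and IDH2 (-0.27) turned against the high glucose arrays. PFKFB2 (0.011), HIF3A (-0.20), CREBBP (0.033), COX7B (0.35), FRK (0.61), FGF9 (0.22), COX4I2 (-0.16), TF (-0.089), MYCN (-0.097), NKG7 (-0.30), CD79A (-0.11), COL3A1 (-0.11), COL6A3 (-0.052), COL1A2 (-0.24), ENG (-0.16), PECAM1 (-0.013) and BBC3 (-0.21) turned with the interquartile range of an array as a covariate. MYC (-0.024), CDK19 (-0.025) and LURAP1L (-0.062) turned with the median of each array subtracted. CREBBP (0.032) turned under cyclic loess, an alternative chosen after seeing the data. CREBBP (0.0019), FGF9 (0.21), PFKFB1 (0.018) and RNF43 (0.34) turned against the mean of the 3 normoxic groups. Without 1 array at a time the changes of HIF3A (-0.024 to 0.48), CDK19 (-0.098 to 0.21), LURAP1L (-0.093 to 0.11), FRK (-0.60 to 0.33) and FGF9 (-0.16 to 0.14) spanned 0. The causes were not tested. Calls of dim genes are limited by the floor, and 2 hypoxia arrays, 1 of which stands apart, limit the rest.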
